A study of Danio rerio with 3 samples.

Results

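The gene expression of zebrafish larvae in which the fli1 driver expressed oncogenic HRASV12 was compared with that of larvae in which the same driver expressed the Notch intracellular domain, NICD. All genes with at least 50 reads summed over the HRASV12 and NICD libraries were taken, which were 20856 of the 27882 genes in the deposited tables. Messenger RNA came from whole larvae of the AB background at 3 days after fertilization. Both transgenic groups carried the driver Tg(fli1ep:GAL4FF)ubs3, in which the fli1ep promoter, active in endothelium, makes the GAL4FF activator. The responder was Tg(UAS:eGFP-HRASV12)io006 in one group, a fusion of HRASV12 with green fluorescent protein, and tg(UAS:NICD)kca3 in the other. The third library, from wild-type larvae, named no driver or transgene and is given as background. There was 1 library per group, and the labels do not say how many larvae went into each. No difference had a replicate check, no test was possible, and every ratio compares these libraries and not the genotypes.

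As background, RAS proteins are molecular switches that pass signals from growth factor receptors to the RAF, MEK and ERK kinases, and the V12 form is locked in the active state. Activated ERK induces immediate early transcription factors such as FOS and the phosphatases that feed back on ERK. Notch receptors are cut on binding a ligand, and the freed intracellular domain enters the nucleus and, with RBPJ, activates hairy-related (her, hes and hey) genes. In the vessels of vertebrate embryos Notch signalling favours arterial fate and restrains sprouting, and in the aorta it is needed for blood stem cells to form.

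Levels are given as CPM, which are reads scaled to a common library size, from corrected reads (unique reads plus a share of those matching several transcripts) after trimmed mean of M values (TMM) scaling, in the order control, HRASV12, NICD. A gene was called higher or lower in HRASV12 when it differed at least 2-fold after adding 0.5 reads to each library and the 95% interval of the ratio excluded 1. The bracketed range after a fold is that interval, an exact conditional binomial (Clopper-Pearson) one, which covers counting error only and leaves out the spread between larvae. Reads carried no molecular identifiers, so they are not independent molecules. The libraries held 26384466 corrected reads in the control, 41105619 in HRASV12 and 21944303 in NICD, and unique reads made up 50.3% to 51.0% of them. A count of 3 reads, taken as the limit of detection, was 0.114 CPM in the control, 0.073 CPM in HRASV12 and 0.136 CPM in NICD. The 20 most abundant genes took 16.1% to 16.4% of reads in the 3 libraries.

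Of the 20856 genes, 1075 (5.15%) were higher in HRASV12 and 1291 (6.19%) were lower, and the median log2 ratio was 0.01. Differences of at least 4-fold were more frequent on the higher side, with 237 genes against 152, and so were those of at least 8-fold, with 96 against 45. The minimum of 50 reads was on unscaled reads. A gene read mainly in the deeper HRASV12 library therefore passed it at a lower CPM than one read mainly in NICD. The lower library held no read for 21 higher and 11 lower genes. The part of this minimum in the excess of wide higher ratios was not tested. On unique reads alone, 818 of 17542 genes were higher (4.66%) and 1026 were lower (5.85%). Of the 1075 genes higher on corrected reads, 654 were also higher on unique reads, 56 were not called and 365 had fewer than 50 unique reads. Of the 1291 lower genes, the corresponding numbers were 865, 99 and 327. No gene was called in opposite directions by the 2 measures. Unique reads are a part of the corrected reads, and all reads were unique in 324 higher and 478 lower genes. For these genes the 2 measures use the same reads, so their agreement was nearly fixed in advance. The 213 genes with 50 to 54 reads had log2 ratios between -7.56 and 5.76, and the 221 genes left out with 45 to 49 reads had ratios between -5.02 and 5.73. At the fold limit, 126 genes were 2- to 2.1-fold higher and 154 were 1.9- to 2-fold higher, against 186 and 199 on the lower side.

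**Figure D1:**
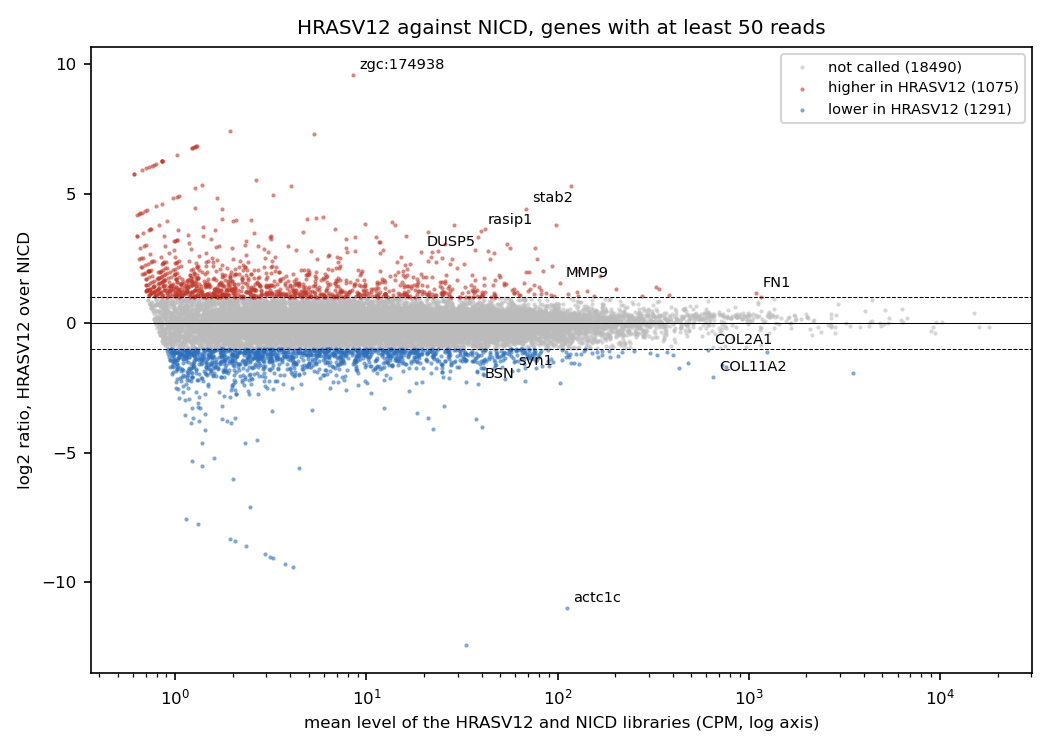
Log2 ratio of HRASV12 over NICD against the mean level of both libraries (CPM, log axis) for 20856 genes, 1 point per gene, with called genes coloured and the 2-fold limits dashed. The 1075 higher and 1291 lower genes lie at low and high levels on both sides.

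The genes tied to the transgenes and their driver were examined first. FLI1, an ETS transcription factor of endothelium whose promoter drove GAL4FF, had 41.9, 103 and 40.7 CPM, so that NICD lay at the control level and HRASV12 was 2.52-fold higher [2.35 to 2.71]. HRAS (ENSDARG00000005651) had 34.6, 37.5 and 34.7 CPM, NRAS had 37.4, 40.2 and 37.3 CPM and kras had 30.7, 29.5 and 26.9 CPM, and the intervals of all 3 ratios included 1. The HRASV12 label could not be checked with these genes, since the labels do not say whether reads of the transgene were counted under HRAS. NOTCH1 had 50.5, 50.2 and 64.6 CPM, 1.29-fold lower [1.203 to 1.38] in HRASV12, which was no call, and 1.06% of its reads were unique. NOTCH3 had 171, 150 and 228 CPM and was 1.52-fold lower [1.46 to 1.58] in HRASV12, also short of a call. The labels do not say from which receptor NICD was taken. Reads of GAL4FF and eGFP were not analysed here.

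Of the 48 lists of genes described here, the pan-endothelial one had the highest median ratio. Among its 46 measured genes, 26 were higher in HRASV12 and 3 were lower, with a median log2 ratio of 1.24, beside 5.15% and 6.19% called among all genes. These shares over all genes are the background for the counts of every list below. On unique reads 23 of 38 measured members were higher and 1 was lower. Summed over the members, the level was 727.1 CPM in the control, 1715 CPM in HRASV12 and 699.1 CPM in NICD. The median log2 ratio was 1.35 in HRASV12 over the control and -0.04 in NICD over the control, which share the control library. In RNA of whole larvae, fewer cells of a type and less RNA per cell cannot be told apart.

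Several endothelial receptors and junction genes showed this pattern. GPR182, an atypical chemokine receptor of endothelium, had 9.34, 53.4 and 3.81 CPM and was 13.9-fold higher [11.3 to 17.6] in HRASV12 than in NICD. KDR, a receptor for VEGF, had 15.4, 55.9 and 15.5 CPM, 3.59-fold higher [3.21 to 4.04]. TIE1, an orphan receptor of the angiopoietin pathway, had 32.2, 135 and 33.5 CPM, 4.04-fold higher [3.74 to 4.37]. In these 3 genes HRASV12 stood above both other libraries, while NICD and control were near each other in KDR and TIE1 and NICD was the lowest in GPR182. CALCRL, which with RAMP2 forms the receptor for adrenomedullin, had 3.32, 14.2 and 1.496 CPM and was 9.38-fold higher [6.70 to 14.0], and ramp2 had 17.0, 74.7 and 13.4 CPM and was 5.58-fold higher [4.96 to 6.32]. The VE-cadherin gene cdh5 had 24.6, 50.9 and 21.5 CPM, 2.37-fold higher [2.14 to 2.62], with 0.0390% of its reads unique. CLDN5 (ENSDARG00000014059), a tight junction protein, had 18.7, 131 and 23.9 CPM, 5.50-fold higher [5.03 to 6.03], with 0.118% unique. For these 2 junction genes the ratio rests almost wholly on shared reads.

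Ligands, intracellular proteins and transcription factors of endothelium followed. ANGPT2 (ENSDARG00000014946), a ligand of the TIE2 receptor made by endothelium, had 0.381, 8.61 and 0.725 CPM and was 11.5-fold higher [7.21 to 21.0]. The gene angpt2b, which has its own identifier, had 2.44, 2.97 and 2.99 CPM and was not called. MYCT1 had 2.82, 25.6 and 1.68 CPM and was 15.08-fold higher [11.0 to 21.8]. The RAS-interacting protein gene rasip1, needed for vessels to form a lumen, had 6.37, 73.3 and 6.16 CPM, 11.9-fold higher [10.0 to 14.2], so its level in NICD was close to that of the control. The ETS factor ERG had 2.36, 13.8 and 2.04 CPM, 6.69-fold higher [4.99 to 9.38], and sox18, an endothelial SOX factor, had 6.94, 23.1 and 9.83 CPM, 2.35-fold higher [2.03 to 2.74]. LMO2, a cofactor of endothelial and blood transcription factors, had 7.70, 22.1 and 6.12 CPM, 3.60-fold higher [3.01 to 4.36]. TAL1, its partner in blood and vessel precursors, had 18.7, 23.5 and 23.5 CPM and did not differ beyond counting error.

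Not all endothelial genes went this way. The paralogs of plasmalemma vesicle protein, a component of the diaphragms of fenestrated endothelium, were opposite: plvapb had 57.6, 153 and 32.8 CPM and was 4.67-fold higher [4.33 to 5.05], whereas plvapa had 6.40, 0.803 and 3.67 CPM and was 4.53-fold lower [3.02 to 7.08]. All reads of plvapa were unique, and its control level exceeded that of both transgenic libraries. The clotting factor gene vwf had 4.76, 3.92 and 10.8 CPM and was 2.75-fold lower [2.25 to 3.39], with 10.3% unique reads. The apelin receptor genes also parted: aplnrb had 20.1, 34.7 and 15.14 CPM, 2.29-fold higher [2.03 to 2.59], and aplnra had 0, 0.803 and 1.68 CPM, 2.09-fold lower [1.27 to 3.45], with no read in the control. The VEGF receptor gene flt1 had 8.77, 13.4 and 13.6 CPM and cd34 had 75.4, 75.6 and 72.2 CPM, and neither was called.

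On corrected reads the venous and lymphatic list held the widest ratio of the endothelial lists, that of stab2. Of 21 measured members, 10 were higher and 1 was lower, with a median log2 ratio of 0.60, and on unique reads 8 of 18 were higher and 1 was lower. The hyaluronan scavenger receptor gene stab2 had 35.3, 129.8 and 6.03 CPM, 21.5-fold higher [18.1 to 25.8], and 8.45% of its reads were unique. On unique reads the log2 ratio of stab2 was 3.22, below that interval. MYCT1 (3.93), GPR182 (3.82) and rasip1 (3.59) had wider ratios on unique reads. The level of stab2 in NICD was below the control as well. The related stab1 had 63.0, 203 and 50.4 CPM, 4.03-fold higher [3.79 to 4.29]. The hyaluronan receptor genes lyve1a and lyve1b, markers of lymphatic and venous endothelium, had 4.23, 46.3 and 5.53 CPM, 8.34-fold higher [6.97 to 10.1], and 5.56, 15.8 and 1.54 CPM, 10.1-fold higher [7.27 to 14.9]. For lyve1b NICD was lower than the control, and for lyve1a it was somewhat higher. The mannose receptor gene mrc1b had 13.3, 65.1 and 9.15 CPM, 7.10-fold higher [6.16 to 8.25], and dab2, an endocytic adaptor, had 24.3, 97.4 and 11.6 CPM, 8.35-fold higher [7.37 to 9.53]. The gene sele, for the leukocyte adhesion molecule E-selectin, had 5.56, 12.7 and 0.997 CPM, 12.4-fold higher [8.31 to 20.5], with no unique read. OIT3 had 1.79, 5.74 and 0.589 CPM, 9.40-fold higher [5.59 to 18.6]. On unique reads stab1, lyve1b and mrc1b were still higher, but their log2 ratios of 1.55, 2.68 and 2.51 lay below the printed intervals. Those of lyve1a, dab2 and OIT3 (3.11, 2.89 and 3.25) lay within them. In stab2, lyve1b, dab2, sele and OIT3 the NICD level was also far below that of the control. The lymphangiogenic growth factor VEGFC was the lower member, with 2.63, 1.97 and 4.53 CPM, 2.297-fold lower [1.70 to 3.12]. NR2F2, the venous fate factor, had 139.8, 124 and 186 CPM and was not called, with 1.33% unique reads. PROX1, the lymphatic fate factor, had 53.9, 59.5 and 45.2 CPM and was not called.

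Arterial and mural genes did not show the endothelial pattern. None of the 26 measured arterial members was higher and 2 were lower, with a median log2 ratio of -0.09. These 2 were GJA5 (ENSDARG00000040065), a connexin of arteries, with 1.98, 1.85 and 3.72 CPM, 2.01-fold lower [1.45 to 2.78], and ALK, a receptor kinase known mainly from neurons, with 14.5, 8.03 and 19.4 CPM, 2.41-fold lower [2.08 to 2.79]. The Notch ligand gene dll4 had 15.4, 23.6 and 23.1 CPM, and HEY2, a Notch target of arteries, had 4.54, 6.15 and 6.44 CPM. Both ratios were within counting error, and both transgenic libraries were above the control for dll4 and for HEY2. Of 17 mural cell genes, which mark pericytes and smooth muscle, 1 was higher and 1 was lower, with a median of -0.58 and 3 members above 0. TAGLN (ENSDARG00000033466), an actin-binding protein of smooth muscle, had 81.1, 173 and 83.8 CPM, 2.07-fold higher [1.96 to 2.18], and FOXC1 had 27.6, 17.6 and 35.3 CPM, 2.004-fold lower [1.81 to 2.22], short of a call on unique reads.

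Of 39 genes of VEGF and angiopoietin signalling, 8 were higher and 2 were lower, and the median was -0.02. This list overlaps those above. The higher genes KDR, TIE1, ANGPT2, aplnrb and tek are also on the pan-endothelial list, and the lower gene VEGFC is also on the venous and lymphatic list. Beside KDR, TIE1, ANGPT2 and aplnrb the higher genes were plxnd1, the semaphorin receptor of endothelium, with 4.57, 26.4 and 6.16 CPM, 4.28-fold higher [3.59 to 5.17], the TIE2 receptor gene tek with 4.88, 15.11 and 7.34 CPM, 2.05-fold higher [1.73 to 2.46], heg1 with 15.8, 35.5 and 15.4 CPM, 2.31-fold higher [2.05 to 2.61], and pdgfba with 2.86, 3.94 and 1.04 CPM, 3.71-fold higher [2.43 to 6.13]. The last of these was not called on unique reads, and 1.92% of the reads of tek were unique. Several ligands made outside endothelium were not called, among them VEGFA (log2 ratio 0.67) and ANGPT1 (-0.48).

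**Figure D2:**
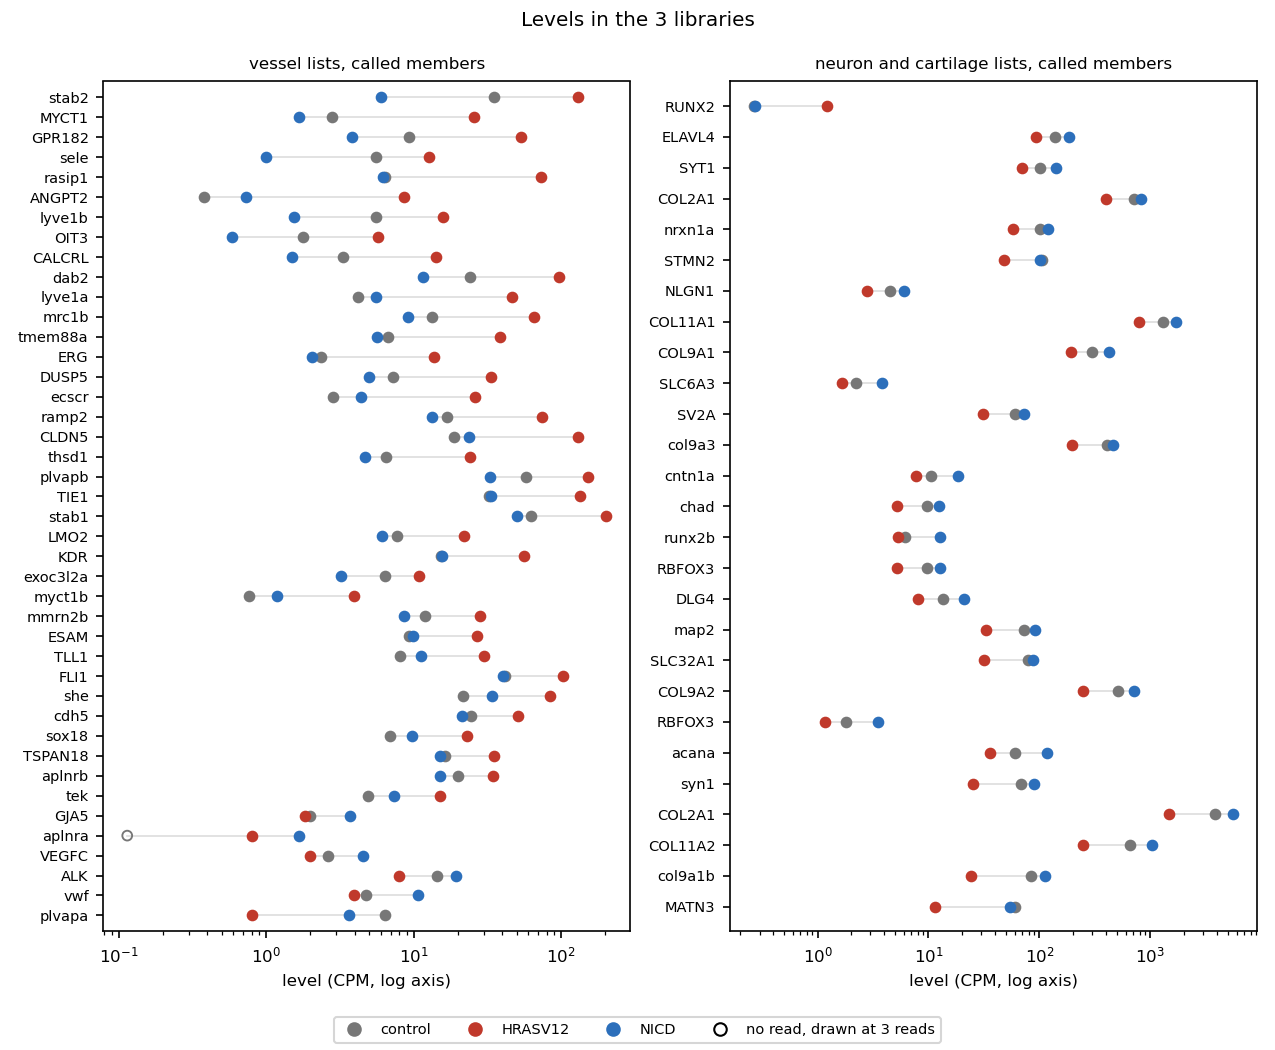
Levels (CPM, log axis) in the control, HRASV12 and NICD libraries of the called members of the pan-endothelial, venous and lymphatic and arterial lists (left) and of the neuron and cartilage lists (right), 1 point per library, with open points for no read. HRASV12 is highest for most vessel genes, stab2 having 35.3, 129.8 and 6.03 CPM, and lowest for most neuron and cartilage genes, COL11A2 having 653, 247 and 1045 CPM.

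Some endothelial genes outside these lists were chosen after their values were seen. The ETS factor gene etsrp, a master regulator of endothelial and blood precursors, had 4.65, 29.3 and 2.86 CPM, 10.2-fold higher [7.97 to 13.5]. PCDH12, an endothelial protocadherin, had 12.7, 75.9 and 11.0 CPM, 6.90-fold higher [6.07 to 7.92], while SCARF1, which encodes a scavenger receptor, had 2.63, 21.1 and 2.36 CPM, 8.87-fold higher [6.76 to 12.08]. TM4SF18 had 4.04, 38.6 and 3.31 CPM, 11.6-fold higher [9.23 to 14.97]. All 4 were highest in HRASV12. The log2 ratio of NICD over the control was -0.70 in etsrp, -0.21 in PCDH12, -0.15 in SCARF1 and -0.29 in TM4SF18.

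The RAS and ERK response genes were higher in part. Of 42 measured members, 7 were higher and 1 was lower, with a median log2 ratio of 0.47, and on unique reads 7 of 40 were higher and 2 were lower. DUSP5, a nuclear ERK phosphatase that is also prominent in endothelium, had 7.20, 33.5 and 4.99 CPM, 6.69-fold higher [5.53 to 8.24]. The immediate early gene egr2a had 1.07, 4.77 and 1.04 CPM, 4.49-fold higher [2.96 to 7.39]. FOSL1, a FOS family factor that accumulates with sustained ERK activity, had 2.55, 24.8 and 7.12 CPM, 3.48-fold higher [2.95 to 4.16]. In FOSL1 NICD was also above the control. FOS had 11.3, 45.4 and 14.3 CPM, 3.17-fold higher [2.82 to 3.59], and FOSB had 2.86, 7.37 and 2.27 CPM, 3.23-fold higher [2.41 to 4.48]. For both, NICD and control were near each other. The ephrin receptor gene epha2a and the early gene ier2b were the remaining higher members, 2.02-fold higher [1.84 to 2.23] and 2.103-fold higher [1.74 to 2.58]. The cytoplasmic ERK phosphatase DUSP6 had 117, 241 and 128 CPM and a log2 ratio of 0.91, under the limit. The feedback inhibitors SPRY4 and SPRY2 had log2 ratios of 0.48 and -0.30, and SPRED3 was the lower member, with 12.08, 9.83 and 21.4 CPM, 2.18-fold lower [1.902 to 2.49]. Of 33 genes of the RAS pathway itself, 2 were higher and none was lower: MRAS (ENSDARG00000075285) had 5.07, 17.1 and 5.71 CPM, 2.98-fold higher [2.47 to 3.64], and RALB had 17.3, 28.6 and 13.5 CPM, 2.12-fold higher [1.86 to 2.41]. BRAF came nearest on the other side, with 18.2, 12.8 and 25.3 CPM and a log2 ratio of -0.98.

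Blood genes of the myeloid lineages were higher more often than lower, beside 5.15% higher and 6.19% lower among all genes. Of 33 macrophage and microglia genes 13 were higher and 1 was lower (median log2 ratio 0.64), of 23 neutrophil and granulocyte genes 9 were higher and none was lower (0.46), and of 22 pan-leukocyte genes 7 were higher and none was lower (0.65). On unique reads the higher members were 7 of 24, 9 of 20 and 5 of 16. The summed level of the macrophage list was 1399.8 CPM in the control, 2021 CPM in HRASV12 and 1323 CPM in NICD, and that of the neutrophil list was 841.4 CPM, 1520.0 CPM and 955.7 CPM. SPI1, the PU.1 factor that specifies myeloid cells, had 3.54, 10.6 and 3.35 CPM, 3.13-fold higher [2.46 to 4.08], with 0.984% of reads unique. The integrin gene itgb2 of leukocytes, which is on both the neutrophil and the pan-leukocyte list, had 10.7, 37.1 and 12.4 CPM, 2.99-fold higher [2.63 to 3.42]. BTK, a signalling kinase of blood cells, had 4.38, 14.8 and 3.85 CPM, 3.83-fold higher [3.07 to 4.89], and CORO1A, an actin regulator of leukocytes, had 13, 39.9 and 15.9 CPM, 2.51-fold higher [2.23 to 2.82]. In all 4 the NICD library lay near the control and HRASV12 stood above both. Of the RAS and ERK response genes, DUSP5 is also on the pan-endothelial list, and the part of endothelial and leukocyte genes in the other calls was not tested.

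Granulocyte products differed widely among themselves. The gene scpp8 had 0.267, 4.82 and 0.589 CPM, 7.89-fold higher [4.67 to 15.6]. The metalloproteases MMP9 and mmp13a, made by neutrophils, macrophages and wounded epithelium, had 12.9, 152 and 52.8 CPM, 2.89-fold higher [2.71 to 3.08], and 9.03, 77.3 and 21.1 CPM, 3.66-fold higher [3.32 to 4.04]. For both proteases NICD was above the control as well. The neutrophil astacin gene npsn had 23.7, 99.6 and 34.1 CPM, 2.92-fold higher [2.701 to 3.16]. The chemokine receptor gene cxcr1 had 48 reads in HRASV12, 6 in NICD and none in the control, 4.01-fold higher [1.83 to 12.3]. The lysozyme gene lyz, in contrast, had 34.8, 39.6 and 68.5 CPM and was highest in NICD, 1.73-fold lower [1.61 to 1.85] in HRASV12 and short of a call. The peroxidase genes epx and EPX, chosen after their values were seen, had 5.30, 4.23 and 0.453 CPM, 8.92-fold higher [4.96 to 19.8], and 32.7, 86.4 and 40.7 CPM, 2.12-fold higher [1.97 to 2.29]. For epx the NICD library was the low one, while for EPX the HRASV12 library was the high one. All reads of epx were unique, whereas EPX had 2.25% unique reads and was not called on these.

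Copies of macrophage genes parted. MPEG1 with identifier ENSDARG00000055290 had 6.90, 16.6 and 6.48 CPM, 2.56-fold higher [2.14 to 3.096], whereas MPEG1 with identifier ENSDARG00000043093 had 7.09, 12.3 and 37.2 CPM, 3.02-fold lower [2.704 to 3.39], with 99.9% of its reads unique. MPEG1 encodes a perforin of macrophages. The scavenger receptor gene marco had 2.25, 8.05 and 3.26 CPM, 2.45-fold higher [1.91 to 3.23], and ctss2.1, for a cathepsin, had 4.23, 18.1 and 6.03 CPM, 2.99-fold higher [2.49 to 3.64]. Of the MFAP4 copies, genes marking zebrafish macrophages, 4 with this name were higher, with folds of 2.33 [1.55 to 3.74], 2.68 [1.403 to 6.16], 2.72 [2.201 to 3.40] and 3.35 [2.53 to 4.57]. The osteoclast and macrophage phosphatase ACP5 had 5.22, 4.35 and 1.04 CPM, 4.1-fold higher [2.698 to 6.76], from 179 and 23 reads.

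Some red cell and globin genes were higher. Of 27 erythroid genes 6 were higher and 1 was lower, with a median log2 ratio of 0.23, and of 6 larval globin genes 3 were higher and none was lower, with a median of 0.93. The rate-limiting haem synthesis enzyme of red cells, alas2, had 54.7, 112 and 51.3 CPM, 2.17-fold higher [2.04 to 2.32], and the red cell carbonic anhydrase gene cahz had 96.4, 121 and 53.6 CPM, 2.26-fold higher [2.12 to 2.41]. The transferrin receptor gene tfr1b had 39.2, 47.7 and 17.99 CPM, 2.65-fold higher [2.38 to 2.96]. In tfr1b and cahz NICD was well below the control, and in alas2 it was close to it. The erythroid factor klf1 had 2.29, 4.87 and 2.27 CPM, 2.13-fold higher [1.57 to 2.99], while gata1a, the main transcription factor of red cells, had 3.85, 6.28 and 4.71 CPM and was not called. SLC4A1, the band 3 anion exchanger, stood for 2 genes, which were 2.17-fold higher [1.92 to 2.47] (ENSDARG00000024560) and 2.19-fold higher [2.05 to 2.35] (ENSDARG00000012881). For the second gene 0.283% of the reads were unique, too few for a check. ANK1 (ENSDARG00000074777), which encodes an ankyrin that is not confined to red cells and has a longest transcript of 11234 bases, was the lower member, with 68.6, 33.5 and 99.7 CPM, 2.97-fold lower [2.78 to 3.18]. Among globins, hbae3 had 1389, 1559 and 771 CPM, 2.02-fold higher [1.99 to 2.06], hbae1.1 had 180.4, 487 and 193 CPM, 2.52-fold higher [2.44 to 2.61], and hbbe3 had 5.64, 21.4 and 6.71 CPM, 3.18-fold higher [2.67 to 3.82]. In hbae3 NICD was the low library, and in hbae1.1 and hbbe3 HRASV12 was the high one. The summed globin level was 2206 CPM in the control, 2928 CPM in HRASV12 and 1457 CPM in NICD.

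Of 20 stem and progenitor genes 3 were higher and 2 were lower, and the median was -0.05. The 3 higher were FLI1, LMO2 and ERG, which are endothelial genes as well. The lower ones were the thrombopoietin receptor gene mpl, with 0.648, 0.559 and 1.405 CPM, 2.497-fold lower [1.42 to 4.51], and gfi1aa, with 1.45, 0.876 and 2.08 CPM, 2.37-fold lower [1.51 to 3.79]. Of 17 thrombocyte genes 4 were higher and 1 was lower (median 0.51), and of 11 lymphoid and thymus genes 2 were higher and 2 were lower (0.16). On unique reads 2 of 11 thrombocyte genes were higher and none was lower, and the median was -0.07. The higher genes named FERMT3 are on both the thrombocyte and the pan-leukocyte list. The platelet glycoprotein gene gp9 had 0.800, 2.97 and 1.13 CPM, 2.58-fold higher [1.69 to 4.21]. The thymic epithelium factor foxn1 had 5.03, 2.51 and 1.18 CPM, 2.096-fold higher [1.37 to 3.41], and the lymphocyte and neural factor TOX (ENSDARG00000032317) had 80.3, 47.6 and 131 CPM, 2.75-fold lower [2.59 to 2.91].

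Among Notch targets, receptors and ligands the share called was near that of all genes, of which 11.3% were called in either direction. None of the 26 measured Notch targets was higher in HRASV12 and 3 were lower, with a median log2 ratio of -0.22, and on unique reads none of 24 was higher and 4 were lower. The 3 hairy-related genes were her4.5, with 6.40, 5.98 and 14.7 CPM, 2.45-fold lower [2.07 to 2.91], her12, with 3.70, 4.11 and 8.25 CPM, 2.01-fold lower [1.62 to 2.49], and her15.2, with 6.86, 4.60 and 9.29 CPM, 2.02-fold lower [1.65 to 2.48]. On corrected reads NICD was the highest library in each of them, and HRASV12 was near the control in her4.5 and her12 and below it in her15.2. For her12 only 2.28% of the reads were unique, 8 of them in HRASV12 and none in NICD. Its ratio therefore rests almost wholly on shared reads. The gene her4.1 had 12.4, 10.0 and 16.7 CPM, HEY1 had 39.14, 29.3 and 46.4 CPM and HES1 had 33.3, 46.7 and 29.0 CPM. Of these, her4.1 and HEY1 were highest in NICD and HES1 was highest in HRASV12. None of the 3 was called on corrected reads, and her4.1 was lower on unique reads. As background, many her genes are active in neural progenitors. The list of neural progenitor and glial genes had none of 39 members called, and 3 of 34 were lower on unique reads, her4.1 among them. It had a median of -0.20 and summed levels of 2215 CPM in the control, 2108 CPM in HRASV12 and 1968 CPM in NICD, and its part in the her gene ratios was not tested.

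Among 14 Notch receptors and ligands, none was higher and 2 were lower (median -0.06). The neuronal ligand DNER had 13.9, 7.74 and 20.7 CPM, 2.68-fold lower [2.32 to 3.099], and jag1a had 8.19, 5.23 and 10.8 CPM, 2.07-fold lower [1.72 to 2.502], with 0.441% of reads unique. Among 28 other pathway genes 1 was higher and none was lower (median 0.13). That one was mfng, a fringe glycosyltransferase that modifies Notch receptors, with 3.47, 11.7 and 2.63 CPM, 4.41-fold higher [3.38 to 5.94]. The gene notchl, chosen after its values were seen and given no role here, had 3.58, 11.0 and 3.44 CPM, 3.18-fold higher [2.505 to 4.14]. In mfng and notchl HRASV12 was the high library.

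Inflammation genes were higher in 8 of 41 and lower in 1, with a median log2 ratio of 0.50, beside 5.15% higher and 6.19% lower among all genes. The gene tnfaip2b had 1.56, 26.3 and 1.86 CPM, 14.0-fold higher [10.4 to 19.8], so NICD was near the control. PTGS2 (ENSDARG00000004539), the inducible cyclooxygenase, had 20.3, 52.2 and 25.8 CPM, 2.02-fold higher [1.84 to 2.22], with a log2 ratio of 0.98 on unique reads, under the limit. ACOD1, the itaconate-making enzyme of activated macrophages, was the lower member, with 1.98, 1.48 and 5.89 CPM, 3.95-fold lower [2.91 to 5.47], from 61 and 130 reads. Of 16 interferon response genes 2 were higher and 1 was lower (median 0.32). The ubiquitin-like isg15 had 0.343, 2.53 and 0.363 CPM, 6.60-fold higher [3.41 to 16.6], from 104 and 8 reads. Of 31 complement and acute phase genes 2 were higher and 1 was lower (median 0.19), the lower one being the adipsin gene cfd, with 24.6, 23.2 and 70.5 CPM, 3.04-fold lower [2.80 to 3.30]. The share called on the complement list was near that of all genes, which was 11.3% in either direction.

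Among 32 matrix proteases and inhibitors 9 were higher and 1 was lower (median 0.29), and on unique reads 9 of 31 and 1. These counts are not separate from those above. MMP9 and mmp13a are also on the neutrophil and inflammation lists, and TIMP2 is also on the inflammation list. The metalloprotease gene adam8a, prominent in myeloid cells, had 6.17, 80.2 and 12.3 CPM, 6.52-fold higher [5.77 to 7.42]. MMP14 (ENSDARG00000008388), a membrane protease, had 101, 208 and 101 CPM, 2.07-fold higher [1.98 to 2.17], and the inhibitor TIMP2 (ENSDARG00000075261) had 18.4, 56.2 and 24.4 CPM, 2.304-fold higher [2.098 to 2.54]. For MMP14 the NICD and control levels were near each other, and for adam8a NICD lay above the control. MMP16, a membrane protease of the nervous system and skeleton, was the lower member, with 7.39, 3.87 and 11.3 CPM, 2.93-fold lower [2.39 to 3.60]. The TGF-beta ligand gene tgfb1b had 1.72, 15.3 and 2.18 CPM, 6.97-fold higher [5.24 to 9.64]. The TGF-beta receptor TGFBR2 (ENSDARG00000059363) had 3.20, 15.03 and 5.98 CPM, 2.51-fold higher [2.08 to 3.06]. Of 44 TGF-beta and BMP genes 3 were higher, these 2 among them, and none was lower (median 0.04). The share called on that list was below the 11.3% of all genes called in either direction.

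Growth and stress genes were called one by one, beside 11.3% of all genes called in either direction. On the heat shock and cholesterol lists the share called was near that of all genes. The insulin-like growth factor binding protein genes igfbp1b and igfbp6b had 2.21, 23.0 and 7.57 CPM, 3.03-fold higher [2.57 to 3.60], and 3.28, 7.37 and 1.77 CPM, 4.12-fold higher [2.98 to 5.98], and with STC1, 4.08-fold higher [3.33 to 5.08], they were the 3 higher of 19 genes on that list, with none lower and a median of -0.08. For igfbp1b the NICD library too was above the control. Of 42 p53 and stress genes 5 were higher and 1 was lower (median 0.36). The polo-like kinase PLK2 stood for 2 genes, 3.14-fold higher [2.85 to 3.46] and 3.34-fold higher [3.01 to 3.71], and mdm2 had 32.1, 61.1 and 43.4 CPM and was not called. Of 39 heat shock genes 3 were higher and 1 was lower (median 0.05). The inducible hsp70.3 had 10.2, 48.6 and 11.0 CPM, 4.401-fold higher [3.86 to 5.06], and hsp70l had 15.02, 28.7 and 10.2 CPM, 2.79-fold higher [2.42 to 3.24]. Copies of hsp70 are near-identical, and 15.9% and 21.2% of their reads were unique. Of 28 cholesterol genes 2 were higher and 1 was lower (median 0.29): SQLE had 4.42, 13.6 and 4.21 CPM, 3.21-fold higher [2.59 to 4.06], and CYP51A1 had 32.2, 82.3 and 33.8 CPM, 2.44-fold higher [2.25 to 2.64], both being enzymes of sterol synthesis.

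Some neuronal and synaptic genes were lower in HRASV12. Of 67 measured members 14 were lower, none was higher and 53 were not called, with 11 members above 0 and a median log2 ratio of -0.57, and on unique reads 13 of 59 were lower and none was higher. The median was -0.48 in HRASV12 over the control and 0.03 in NICD over the control, and the summed levels were 5183 CPM in the control, 3642 CPM in HRASV12 and 5279 CPM in NICD. The synaptic vesicle gene syn1 had 68.6, 24.98 and 90.05 CPM, 3.60-fold lower [3.34 to 3.89]. SLC32A1, the vesicular transporter of inhibitory transmitters, had 79.5, 31.6 and 87.5 CPM, 2.77-fold lower [2.58 to 2.97], with all reads unique. The dendritic gene map2 had 72.4, 33.0 and 90.4 CPM, 2.74-fold lower [2.55 to 2.93], and DLG4 (ENSDARG00000039385), a postsynaptic scaffold, had 13.5, 8.05 and 20.7 CPM, 2.57-fold lower [2.23 to 2.97]. In all 4 HRASV12 was the lowest library. The vesicle protein SV2A and the calcium sensor SYT1 (ENSDARG00000030614) were 2.31-fold lower [2.14 to 2.49] and 2.03-fold lower [1.93 to 2.14]. ELAVL4, a neuronal RNA-binding protein, had 137, 92.3 and 185 CPM, 2.003-fold lower [1.92 to 2.09], and was not called on unique reads. Neuronal genes outside the list, chosen after their values were seen, included nrxn2b, a presynaptic adhesion gene, with 26.9, 10.2 and 43.7 CPM, 4.29-fold lower [3.82 to 4.82], the calcium channel gene cacna1aa with 43.4, 16.4 and 65.6 CPM, 4.004-fold lower [3.65 to 4.396], the glutamate receptor genes grin2da, 4.28-fold lower [3.33 to 5.57], and GRIK4, 4.06-fold lower [3.28 to 5.06], and csmd3a, 3.92-fold lower [2.71 to 5.81]. For cacna1aa and csmd3a 1.23% and 9.70% of the reads were unique, too few for a check.

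Some cartilage and bone genes were lower as well. Of 55 measured members 12 were lower, 1 was higher and 42 were not called, with 13 members above 0 and a median log2 ratio of -0.43, and on unique reads 11 of 50 were lower and none was higher. The median was -0.28 in HRASV12 over the control and 0.20 in NICD over the control. The fibrillar collagen COL2A1 stood for 2 genes, of which ENSDARG00000069093 had 3818, 1476 and 5563 CPM, 3.77-fold lower [3.73 to 3.81], and ENSDARG00000011407 had 716, 402 and 826 CPM, 2.05-fold lower [2.01 to 2.096]. The first had 3.49% unique reads and nearly all reads of the second were unique. COL11A2 had 653, 247 and 1045 CPM, 4.23-fold lower [4.13 to 4.33], and col9a1b had 84.3, 24.0 and 111 CPM, 4.65-fold lower [4.32 to 5.01]. For COL11A2 1.94% of the reads were unique, with a log2 ratio of -1.82 on these, a smaller difference than the interval covers. For col9a1b 35.5% were unique, with a log2 ratio of -2.45, a larger difference than the interval covers. The proteoglycan gene acana had 60.3, 35.8 and 118 CPM, 3.28-fold lower [3.08 to 3.50], and MATN3 (ENSDARG00000069245), a cartilage matrilin, had 60.3, 11.4 and 54.8 CPM, 4.81-fold lower [4.32 to 5.37], with no unique read. In these collagen and proteoglycan genes NICD exceeded the control, and in MATN3 it lay slightly under it. The osteoblast factor runx2b had 6.10, 5.30 and 12.8 CPM, 2.41-fold lower [2.01 to 2.89], while RUNX2 (ENSDARG00000040261) was the higher member, 4.17-fold higher [1.92 to 12.8], from 50 and 6 reads, none of them unique.

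Genes of the eye and kidney were lower more often than higher, beside 5.15% higher and 6.19% lower among all genes. Of 52 photoreceptor and retina genes 8 were lower and 1 was higher (median -0.27), but here both transgenic libraries were below the control, with medians of -1.68 in HRASV12 and -1.26 in NICD. The photoreceptor factor crx (ENSDARG00000011989) had 108, 40.9 and 89.8 CPM, 2.19-fold lower [2.06 to 2.34], and CNGA1 (ENSDARG00000012125), the rod channel, had 4.31, 0.535 and 1.45 CPM, 2.69-fold lower [1.53 to 4.89], from 22 and 32 reads. The red cone opsin gene opn1lw1 was the higher member, with 4.27, 3.53 and 0.453 CPM, 7.44-fold higher [4.11 to 16.6], from 145 and 10 reads. Of 44 lens genes 7 were lower and none was higher (median -0.23). On this list too both transgenic libraries were below the control, with medians of -0.57 in HRASV12 and -0.23 in NICD and summed levels of 5550.3 CPM in the control, 3875 CPM in HRASV12 and 4379.6 CPM in NICD. The crystallin CRYBA4 had 115, 80.9 and 185 CPM, 2.28-fold lower [2.18 to 2.39]. In CRYBA4, unlike the list as a whole, NICD was above the control. Of 29 kidney genes 6 were lower and none was higher (median -0.38). Unlike on the eye lists, the median was -0.003 in HRASV12 over the control and 0.38 in NICD over the control. The kidney and midbrain factor PAX2 stood for 2 genes, 2.84-fold lower [2.27 to 3.57] and 2.76-fold lower [2.48 to 3.08]. For the second gene 2.57% of the reads were unique, too few for a check. The chloride channel gene clcnk had 1.11, 1.22 and 3.53 CPM, 2.90-fold lower [2.01 to 4.23], and NICD was again the high library.

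Beside the 11.3% of all genes called in either direction, the remaining tissues differed in their share of calls. Of 60 matrix and basement membrane genes 1 was higher and 2 were lower (median -0.21). Fibronectin FN1 (ENSDARG00000006526) had 439.7, 1506 and 680.3 CPM, 2.21-fold higher [2.17 to 2.25], but 0.455% of its reads were unique and on these it was not called. Elastin elnb had 41.8, 10.4 and 39.0 CPM, 3.74-fold lower [3.33 to 4.21], with 2.79% of its reads unique, too few for a check. In skeletal muscle 3 of 58 genes were lower and none was higher (median -0.16), and in heart 1 of 40 was higher and 3 were lower (-0.06). The pacemaker channel name HCN4 stood for 2 lower heart genes, 4.23-fold lower [2.68 to 6.99] and 3.41-fold lower [1.95 to 6.27]. Skin and keratin genes had 1 lower and none higher of 45 (0.33), liver and yolk genes 2 higher of 53 (0.05), exocrine pancreas genes 4 higher of 22 (0.12), gut and endocrine genes 6 higher and 3 lower of 38 (0.11), pigment cell genes 1 higher of 26 (-0.11), glycolysis and hypoxia genes 1 higher and 1 lower of 44 (-0.02), and circadian clock genes 2 lower of 39 (-0.06). The pancreatic acinar factor BHLHA15 had 0.648, 1.8 and 0.634 CPM, 2.76-fold higher [1.59 to 5.44].

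No member was called on corrected reads on 6 lists, which were S phase (38 measured), mitosis (40), neural progenitor and glia (39), oxidative phosphorylation (56), ribosomal proteins (71) and reference genes (32). Their medians were 0.17, 0.21, -0.20, 0.03, 0.28 and 0.19 on the log2 scale. The replication clamp PCNA had 263, 213 and 179 CPM and CCNB1, the mitotic cyclin, had 46.4, 44.6 and 31.3 CPM. Both transgenic libraries were below the control for PCNA, while for CCNB1 HRASV12 was near the control and NICD was below it. Of 71 ribosomal protein genes 70 had a ratio above 0, and the highest log2 ratio among them was 0.45. The reference gene actb1 had 3494, 4695 and 3416 CPM, 1.37-fold higher [1.36 to 1.39] in HRASV12 and short of a call.

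**Figure D3:**
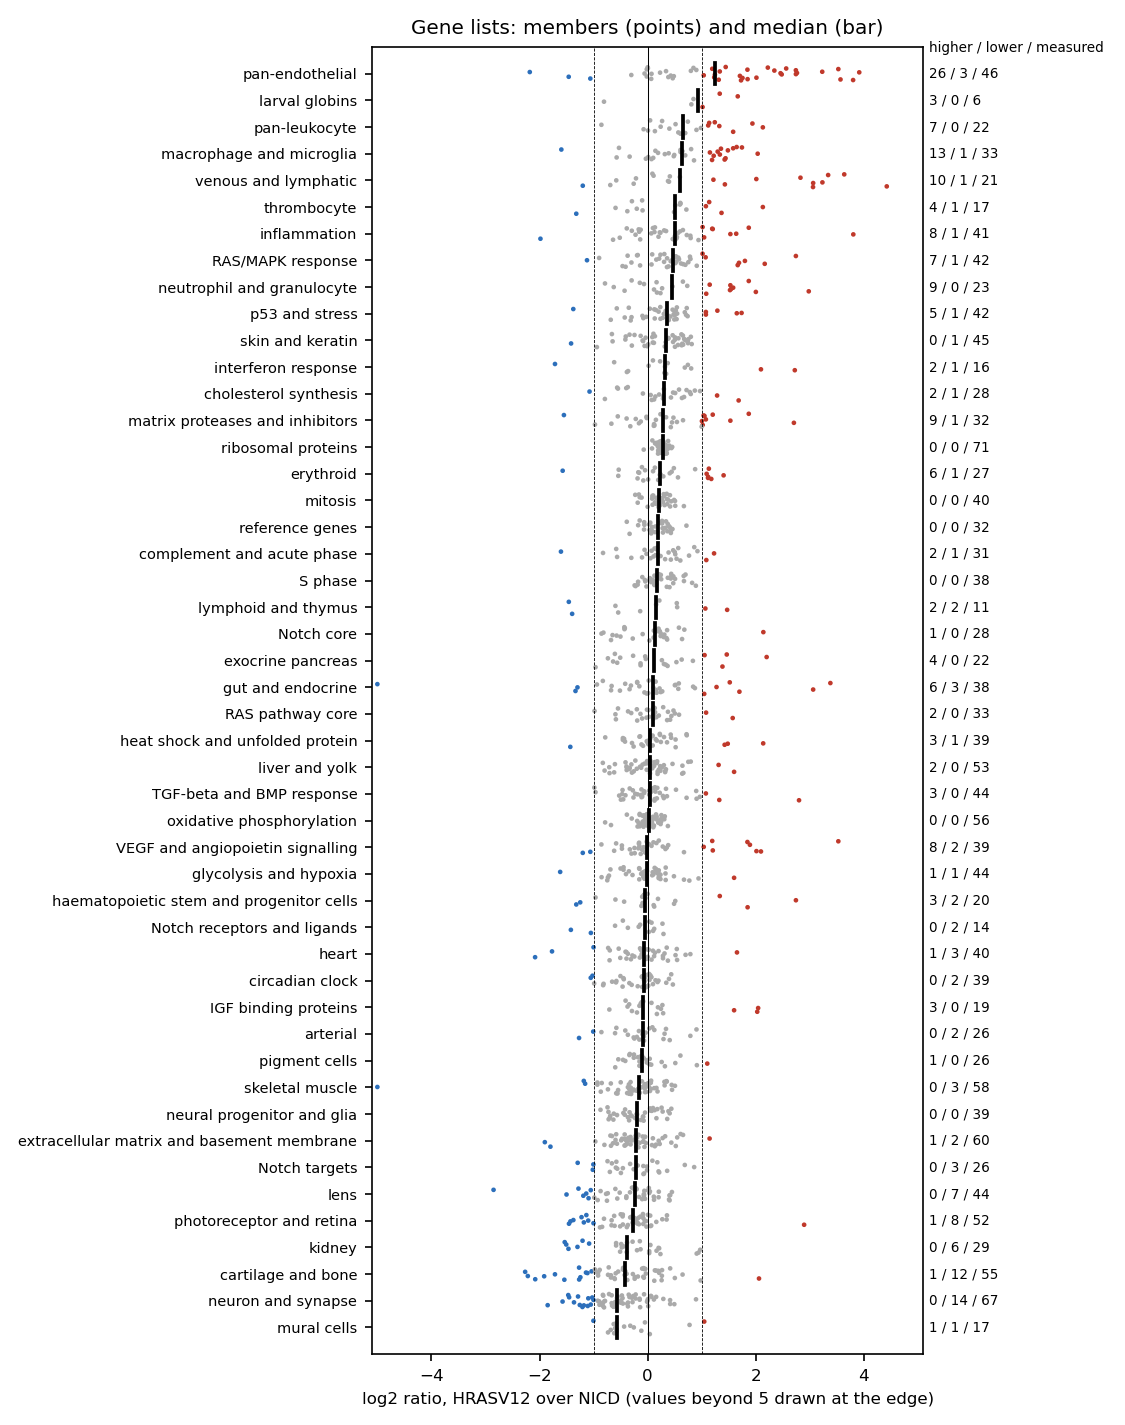
Log2 ratio of HRASV12 over NICD for the measured members (points) of 48 gene lists, with the list median as a bar and the numbers higher, lower and measured on the right. Pan-endothelial genes have the highest median, 1.24, with 26 of 46 higher, and the neuron list has 14 of 67 lower and none higher.

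The ends of the ranking were led by genes that 1 library nearly lacked. Taking named genes whose higher library held 100 reads or more, zgc:174938 had 261 reads in the control, 701 in HRASV12 and none in NICD, at least 125-fold higher in HRASV12 against a limit of 3 reads in NICD. Similarly si:dkeyp-94g1.1 had 36, 101 and no reads, at least 18.1-fold higher. These 2 genes had reads in the control, so the NICD library stood apart, and 5.28% and 0.990% of their reads were unique. GPR183, a receptor for oxysterols in leukocytes, had 0.534, 10.3 and 0.589 CPM, 16.8-fold higher [10.1 to 33.1], and BCL6B, a transcriptional repressor of endothelium, had 4.002, 77.1 and 6.12 CPM, 12.6-fold higher [10.6 to 15.09], both with unique reads alone. ITPRIP (ENSDARG00000036479) had 0.229, 3.79 and 0.227 CPM, 15.3-fold higher [7.02 to 52.3], and itln1, an intelectin, had 0.267, 3.33 and 0.181 CPM, 16.4-fold higher [7.02 to 68.4]. In these 4 HRASV12 was the library that stood apart.

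At the other end, the actin gene actc1c had 9 reads in the control, 4 in HRASV12 and 4957 in NICD, 2052-fold lower [901 to 8477], and 22.9% of its reads were unique. SCG5 (ENSDARG00000077045), LRRTM2 and fabp4a had no read in the control or in HRASV12 and 166, 130 and 104 reads in NICD, at least 103-, 80.7- and 64.6-fold lower in HRASV12. Few of their reads were unique (6.02%, 4.62% and 14.4%), so none could be checked on unique reads. SCG5 encodes a chaperone of a prohormone convertase and fabp4a a fatty acid binding protein. Other lower genes had similar control and NICD levels and a low HRASV12 level: zmp:0000000760 had 33.4, 3.09 and 38.7 CPM, 12.5-fold lower [10.4 to 15.22], and cmn had 37.5, 5.06 and 46.0 CPM, 9.08-fold lower [7.83 to 10.6]. The presynaptic scaffold BSN had 48.9, 12.5 and 64.2 CPM, 5.14-fold lower [4.65 to 5.70], and the mesenchymal factor twist1b had 2.13, 0.559 and 5.89 CPM, 10.3-fold lower [6.72 to 17.2]. For BSN 4.09% of the reads were unique, and on these the log2 ratio was -1.58, a smaller difference than the interval covers. In twist1b HRASV12 was below the control and NICD was above it, but 3.92% of its reads were unique, too few for a check. The cohesin gene rad21a, chosen after its values were seen, had 92.9, 99.1 and 13.2 CPM, 7.48-fold higher [6.65 to 8.46], so that NICD alone was low.

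Genes with no name in the reference tables held some of the widest ratios. Of those with a mean of at least 20 CPM over both libraries, the pair highest and the pair lowest were chosen after their values were seen. ENSDARG00000073928 had 28.1, 229 and 5.76 CPM, 39.6-fold higher [33.4 to 47.8], and ENSDARG00000015717 had 17.7, 183 and 13.3 CPM, 13.7-fold higher [12.2 to 15.5], both on unique reads alone. ENSDARG00000091444 had 19 reads in the control, none in HRASV12 and 1464 in NICD, at least 909-fold lower in HRASV12. ENSDARG00000074683 had 2.36, 4.69 and 76.0 CPM, 16.2-fold lower [13.9 to 18.9]. In the lower pair the NICD library stood apart from the other two.

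**Figure D4:**
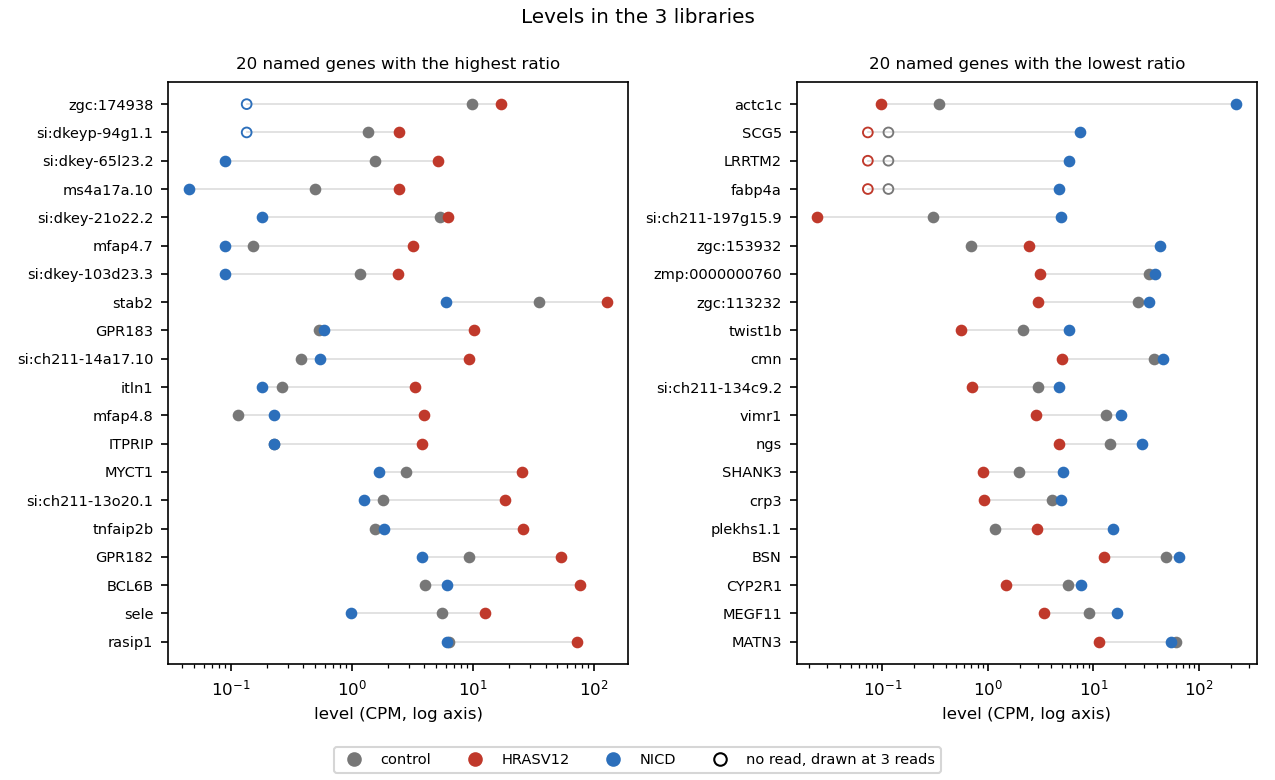
Levels (CPM, log axis) in the control, HRASV12 and NICD libraries of the 20 named genes with the highest and the 20 with the lowest ratio, 1 point per library, with open points for no read. For stab2 (35.3, 129.8 and 6.03 CPM) the control lies between the transgenic libraries, whereas for BCL6B (4.002, 77.1 and 6.12 CPM) HRASV12 alone is high and for actc1c NICD alone.

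Some called genes lay beside each other in the genome. Of the measured genes 11881 could be placed in the order of the GRCz12tu annotation, which is not the build of the files and was used for order alone. Of 519 placed higher genes (4.37% of those placed) the next gene was also higher for 45 (8.72%), and of 518 lower genes (4.36%) the next was also lower for 20 (3.86%). At least 3 neighbours were called the same way in 8 runs. The longest were 5 higher genes from si:dkey-239j18.2 to zgc:174153, a run of mfap4.8, mfap4.7, mfap4.11 and soul5l, and a run of 4 ms4a17a genes. Copies in such families are similar in sequence, and reads can be divided among them. In the mfap4 run, mfap4.8 had 0.114, 3.94 and 0.227 CPM, 15.9-fold higher [7.30 to 54.3], and mfap4.11 had 0.457, 4.74 and 0.408 CPM, 11.0-fold higher [6.002 to 25.8], with HRASV12 the high library. In the longest run the control was the highest library for 4 of the 5 genes, si:dkey-239j18.3 having 33.9, 12.7 and 5.80 CPM, 2.18-fold higher [1.797 to 2.67]. The hatching enzyme genes he1.1 and he1.2 formed another run, with 37.9, 24.8 and 6.12 CPM, 4.04-fold higher [3.39 to 4.89], and 11.6, 5.55 and 1.405 CPM, 3.89-fold higher [2.71 to 5.95]. Their highest level was in the control too. Among lower runs, the acute phase gene family crp2, crp3 and crp5 were 11.6-fold lower [5.49 to 32.1], 5.30-fold lower [3.66 to 7.95] and 5.44-fold lower [3.46 to 9.06], from 7, 38 and 25 reads in HRASV12. The levels were 0.839, 0.170 and 2.08 CPM for crp2, 4.04, 0.924 and 4.94 CPM for crp3, and 0.419, 0.608 and 3.35 CPM for crp5. HRASV12 was thus the low library in crp3 and NICD the high one in crp5. Unique reads made up 7.55%, 7.48% and 2.02%, too few for a check on unique reads.

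The ratio moved with transcript length. Genes whose longest transcript was 1000 to 1500 bases had a median log2 ratio of 0.09, and the 1176 genes over 6000 bases had a median of -0.30. The share called higher fell from 10.4% in genes of up to 500 bases to 1.02% over 6000 bases. The share called lower did not rise steadily. It was 7.14% up to 500 bases, 5.34% at 1500 to 2000 bases and 9.69% over 6000 bases. Over 6000 bases the median was -0.09 in HRASV12 over the control and 0.24 in NICD over the control. The same low median over 6000 bases was found in genes with at least 1000 reads (-0.30), with 1 transcript (-0.30) and with all reads unique (-0.32). When ratios were centred within length bins, a step added after the trend was seen, the medians were 1.21 for pan-endothelial genes, -0.53 for neuronal genes and -0.32 for cartilage genes. The mural list moved from -0.58 to -0.36 and the lymphoid and thymus list from 0.16 to 0.31. For the extracellular matrix list, with a median longest transcript of 5367 bases, the median was -0.21 before and -0.07 after centring. The part of transcript length in the calls of single long genes, such as BSN (9435 bases), was not tested.

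**Figure D5:**
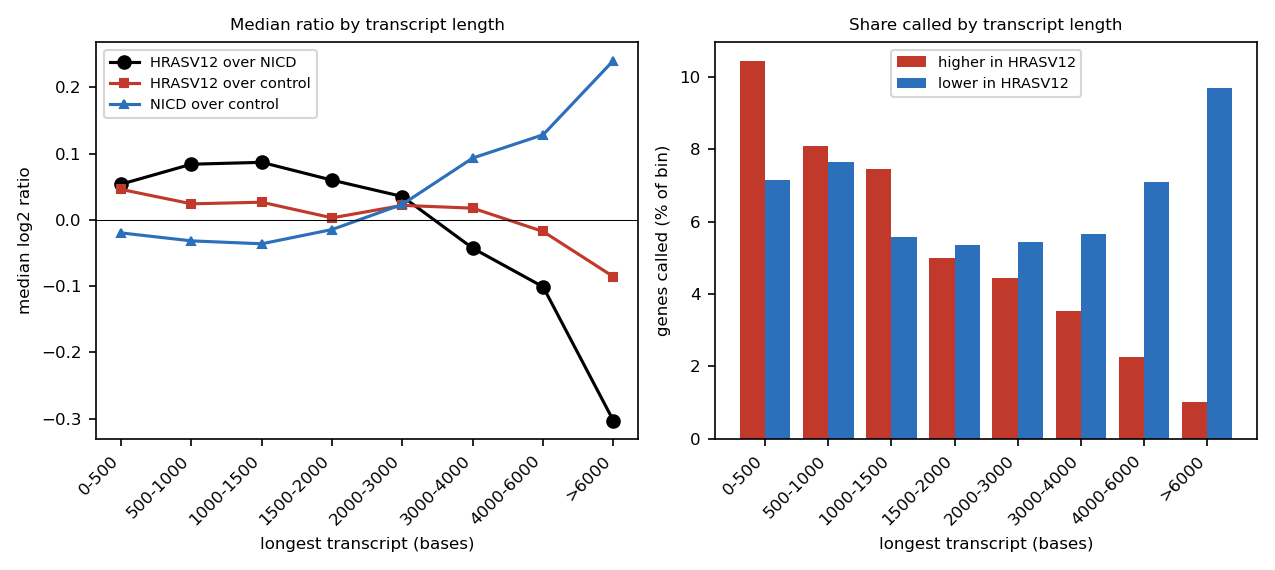
Left, median log2 ratio of HRASV12 over NICD, HRASV12 over control and NICD over control by length of the longest transcript (bases). Right, percent of genes in each length bin called higher or lower in HRASV12; the median falls to -0.30 over 6000 bases while the share called lower is 9.69%.

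Calls also depended on the number of reads. With 50 to 100 reads in the 2 libraries 17.1% of genes were higher and 17.4% were lower, and with over 5000 reads 1.70% and 2.06% were. The median number of reads was 185 in higher genes, 237 in lower genes and 909 in those not called.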

How the data were processed

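RNA from whole zebrafish larvae was sequenced in 3 libraries, 1 per group. Libraries were made with the TruSeq RNA kit from 10 ug of Trizol-extracted RNA and run on a HiSeq 2000, per the labels' protocols. Per the series design text, the authors assigned reads with CLC bio Assembly Cell 3.2 to Ensembl release 63 cDNAs of the Zv9 build, and the submitters' processing notes name CASAVA 1.8. Neither mapping parameters nor the use of strand are stated in these sources, and sense and antisense reads cannot be told apart. Per the file headers, the deposited unique reads are whole-number counts of reads matching 1 transcript. The deposited corrected total reads are estimated counts, in which the authors added a share of the non-unique reads, and were whole numbers as deposited. The authors' deposited RPKM values were recomputed from the corrected reads and the longest transcript. Over genes of at least 1 RPKM the largest difference was 7.13%, and over those with at least 50 reads as well, a limit chosen after this was seen, it was 1.00%.

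Corrected reads were scaled by TMM factors (edgeR 4.0.16 in R 4.3.3) from the 3 libraries, with Python 3.11.15, numpy 2.4.6, pandas 2.3.3 and scipy 1.17.1 for the ratios and matplotlib 3.10.9 for the figures. With 1 library per group no model was fitted across genes and no p-value was computed. Names came from the files and a gene name table, which named 19635 of 27882 identifiers and 16167 of the 20856 measured genes. A name in capitals can stand for several zebrafish copies, which were told apart by identifier. The comparison, the 48 gene lists and their rules were chosen with earlier results of these data known, and their counts are a description. The lists held 2403 symbols, of which 627 matched no identifier, and a symbol on several lists was counted in each. On at least 1 list were 1582 measured genes, of which 135 were higher and 87 were lower. Named were the genes tied to the transgenes, the 20 highest and 20 lowest named genes whose higher library held 100 reads or more, up to 4 members per list with the largest ratio, members of runs of at least 3 neighbours, and reference genes. Some genes that this rule takes are not reported here. Other list members, and the genes so marked, were chosen after their values were seen. Other scalings (total reads, DESeq2 1.42.0 size factors, upper quartile, without the 20 most abundant genes), RPKM with 0.1 added, unique reads, other read minimums, 5 reads added and other fold limits were tried, and centring by transcript length was added after the trend was seen.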

Additional observations from a re-analysis of the deposited data

How the results depend on the processing

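The counts of genes higher in HRASV12 than in NICD (1075) and of genes lower in HRASV12 than in NICD (1291) depended on the limits. Higher genes numbered 1655 with no minimum of reads, 1629 with a minimum of 10, 521 with 200, 2310 at 1.5-fold and 237 at 4-fold. Lower genes numbered 2095 with no minimum, 700 with 200, 2957 at 1.5-fold and 152 at 4-fold. Under the other settings tried, higher genes numbered from 818 on unique reads to 1103 with upper quartile scaling, and lower genes from 1026 on unique reads to 1870 with a minimum of 10 reads. The median log2 ratio of all genes lay between -0.005 and 0.027. Over 5 scalings no list median shifted by more than 0.044. Centring by length moved list medians further, by the most in mural cells, from -0.58 to -0.36, while the matrix list moved from -0.21 to -0.07, ribosomal proteins from 0.28 to 0.21 and oxidative phosphorylation from 0.03 to -0.03. Of 2761 values of named genes under the alternatives, 2676 lay within the 95% counting interval of the reported ratio and 85 lay outside it, and no named gene that was called changed direction. The read minimum and the fold limit do not enter the ratio of a gene, and a library scaling shifts all genes alike. A value under another minimum or limit therefore equals the reported ratio by construction, and the count of 2676 is a description only. No paired analysis was possible because each group had 1 library. Genes near 50 reads have wide intervals, and no setting can supply the spread between larvae.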
